A study of Homo sapiens with 6 samples.

Results

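The genes described here encode the vacuolar ATPase and the lysosome of NK-92MI cells, a human natural killer (NK) cell line, in control samples and in separate samples that received mitochondria from another cell line. The 45 genes were taken from a fixed list of symbols. They comprise 17 genes of the proton pump, 17 of lysosomal enzymes, 6 of lysosomal membrane proteins, 2 of soluble proteins that are not enzymes and 3 of transcription factors that control lysosome genes. All 45 were measured, among 22260 genes in all, on 697 of 259224 probe sets that named 1 gene alone. A member had between 4 and 27 probe sets, with a median of 15.

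The vacuolar ATPase is a rotary pump that spends ATP to move protons into lysosomes and other compartments. Its V1 sector lies in the cytosol and splits ATP, whereas its V0 sector lies in the membrane and carries the protons. The acid interior is needed by the cathepsins and other hydrolases that break down proteins, sugars and lipids, and in killer lymphocytes the cytotoxic granules are lysosome-related organelles of the same kind. TFEB, TFE3 and MITF are related transcription factors that bind a short promoter element, CACGTG, in many of these genes.

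Total RNA was hybridised to Affymetrix whole-transcript arrays from 3 control samples and 3 samples after mitochondrial transfer. All were of the NK-92MI line, which was cultured in α-MEM with fetal bovine and horse serum. The transfer samples received 5 µg of mitochondria isolated from WRL cells, described in the study as a hepatocyte line (WRL-68), by centrifugation at 1500 × g for 15 min. The labels do not say whether the control cells were centrifuged or when RNA was taken. Nor do they say whether the 3 samples of a group came from separate cultures. Effects of the spin and of the mitochondria on RNA therefore cannot be told apart, and p-values measure only the spread between these samples. The study reports no significant change in viability, cytotoxicity or proliferation from the spin, and gives no RNA result for it.

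Values are log2 intensities as deposited, so a difference of 1 is a doubling of signal. Each gene was represented by its brightest probe set, the one whose mean across all 6 arrays was highest, and levels were not compared between genes. Background was the level below which 95% of olfactory receptor genes lay, 6.59 for brightest probe sets and 6.15 for single probe sets. All 45 members had a mean above it, as did 16006 of all genes (71.9%), and so did 473 of the 697 member probe sets. The 367 olfactory receptor genes held 845 probe sets in all, whereas a member had a median of 15. The brightest of more probe sets passes such a level more easily, so passing it does not by itself show that a gene was expressed. Array medians ranged from 6.34 to 6.40. All 15 NK markers lay above background, and 1 of them (FCER1G, 2.61 higher) passed the test described below, where 1.74% of all genes were higher. The controls of FCER1G, 6.38, 6.95 and 6.72, were close to background, and the median of its 7 probe sets gave a difference of 0.21. Of the 15, 11 had a negative difference, with a median of −0.20, and in 8 all transfer arrays lay below all controls, as in 11.8% of all genes. Their summed signal on the log2 scale was 15.22 to 15.35 in controls and 15.09 to 15.25 after transfer. Of 20 hepatocyte or epithelial markers 15 lay above background, with sums of 12.00 to 12.20 and 11.96 to 12.11, and of 10 measured markers of other blood cells 5 did, with sums of 12.49 to 12.62 and 12.47 to 12.49. The part of these markers in the results below was not tested. Intensities of a whole culture cannot tell fewer expressing cells from less RNA per cell.

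Of the 45 members, 3 were higher after transfer and none was lower at an adjusted p under 0.05 (limma with Benjamini-Hochberg adjustment over all genes). Among all genes 1.74% were higher and 0.234% lower. The 3 genes were CTSL, GLA and CTSB, all of lysosomal hydrolases. At an unadjusted p under 0.05, 5 members were higher and 5 lower in the same fit, against 10.6% and 7.31% of all genes. With quantile, loess and median scaling the lower count was 2, 1 and 2, and the higher count was 6 each time. The median difference over all genes was then 0.065, 0.071 and 0.051. The shares of all genes at that level were not computed, so these counts cannot be set against them. The 3 transfer arrays lay wholly above the 3 controls for 7 members and wholly below them for 12, against 13.9% and 11.8% of all genes. A choice of probe sets by control arrays changed the probe set of 6 of the 45 members and 2143 of the 22260 genes. Among the 7 members this held for GLA, CTSK and TPP1, whose differences then were −0.50, −0.30 and −0.25.

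The difference was negative for 29 of the 45 members (64.4%) and for 49.4% of all genes, with a member median of −0.18 on the log2 scale, while the median over all genes was 0.005. Brighter genes as a class leaned the same way. Of the 4129 genes at least as bright as the median member, 59.8% had a negative difference, with a median of −0.06. Of single probe sets above background, 66.4% were negative among the members and 60.8% among all genes.

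**Figure D1:**
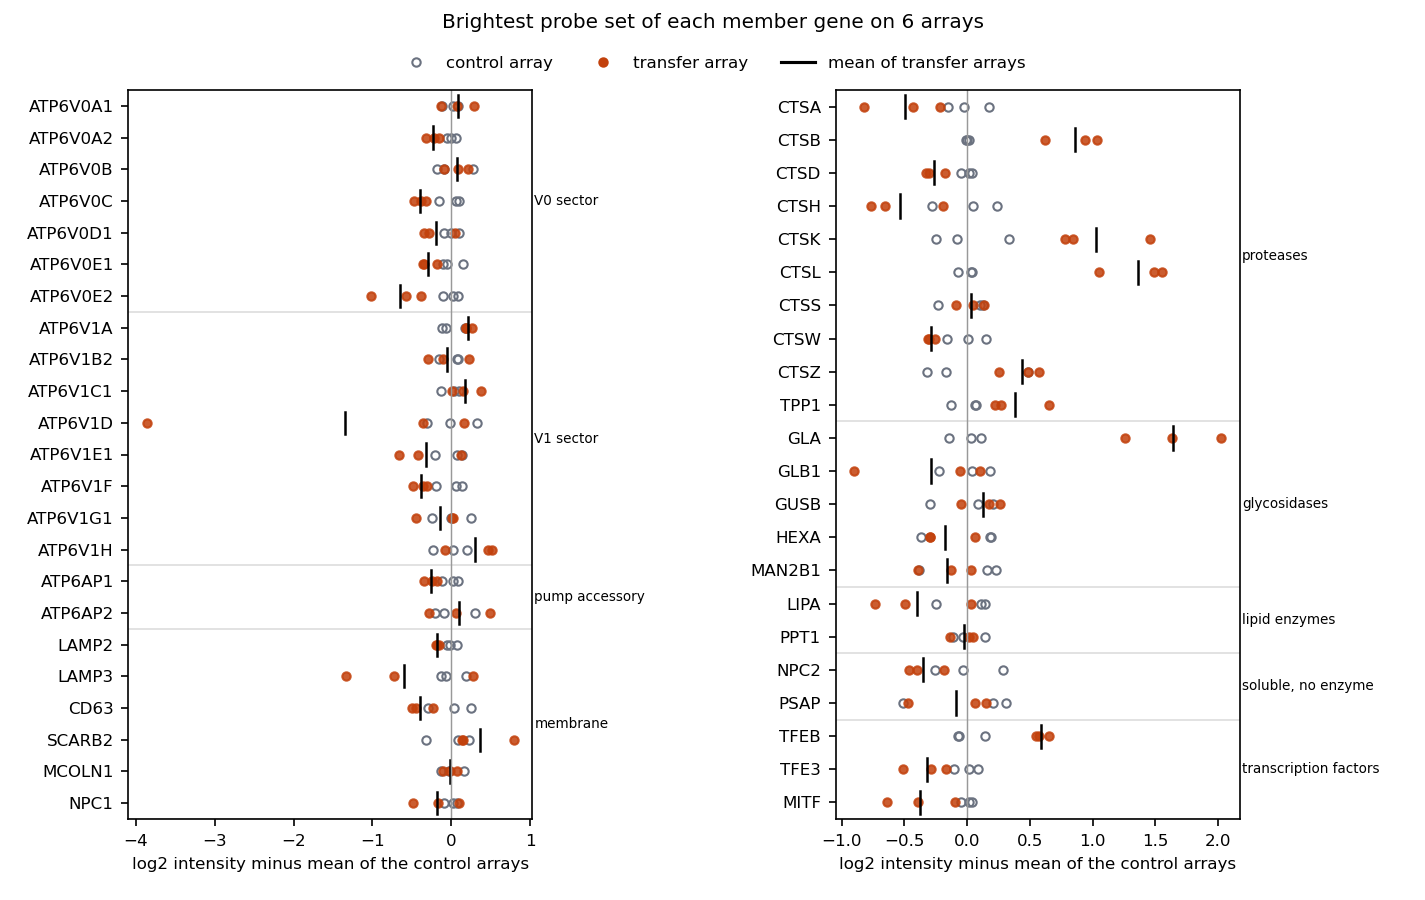
Log2 intensity of the brightest probe set of each of the 45 members on 3 control arrays (open circles) and 3 transfer arrays (filled circles), relative to the mean of the controls, with a bar at the mean of the transfer arrays. GLA, CTSL, CTSK and CTSB lie to the right of all their control values, ATP6V1D has 1 transfer array far to the left, and most pump genes lie at or left of 0.

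Cathepsin L is a cysteine protease of the lysosome, encoded by CTSL. Its log2 intensity was 6.85, 6.86 and 6.74 in the controls and 7.87, 8.37 and 8.30 after transfer. All transfer arrays lay above all controls, and the controls were close to background. The means were 6.82 ± 0.06 and 8.18 ± 0.27 (SD, n = 3), a difference of 1.36 (2.57-fold, standard error 0.17, limma adjusted p = 0.0117). None of its 7 other probe sets lay above background. Of these, 5 had a positive difference, with a median of 0.47. RefSeq names 6 pseudogenes of CTSL, and whether their transcripts reach the same probes was not tested.

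Alpha-galactosidase A, encoded by GLA, removes terminal galactose from glycolipids in the lysosome. Its brightest probe set gave 8.12, 8.31 and 8.39 in the controls and 9.53, 9.91 and 10.30 after transfer. The groups did not overlap, and the difference was 1.64 (3.12-fold, standard error 0.21, limma adjusted p = 0.0135). The rest of the gene did not share it. Of 12 other probe sets 10 had a negative difference, including all 7 above background, with a median of −0.46 over those 7.

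The next brightest GLA probe set gave 8.38, 8.35 and 8.58 in the controls and 8.52, 7.66 and 7.63 after transfer. It was the brighter of the pair in the controls, so that a choice of probe sets by control arrays alone, made after seeing the data, gave GLA a difference of −0.50 (limma adjusted p = 0.367). The call for GLA therefore rests on 1 of 13 probe sets. In RefSeq GLA overlaps RPL36A-HNRNPH2, a locus that joins neighbouring genes, and the share of signal from that locus was not tested.

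Cathepsin B, the product of CTSB, is a cysteine protease found in most cells. The log2 intensities were 8.85, 8.83 and 8.83 in the controls and 9.87, 9.45 and 9.78 after transfer. The controls were nearly identical, and all transfer arrays lay above them. The difference was 0.86 (1.82-fold, standard error 0.15, limma adjusted p = 0.0436). Of the 6 other probe sets above background 5 had a positive difference, with a median of 0.29 over the 6, and of all 26 others 15 did.

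These calls depended on the arrays and on the choice of probe sets. With control array 1, 2 or 3 left out no member passed, and 0.845%, 0.75% and 0.867% of all genes were higher. Without transfer array 1, 2 or 3 the shares of all genes were 1.29%, 0.93% and 1.03%, and 2 members passed each time. CTSL was among them in all 3 cases, GLA was missing without transfer array 2 and CTSB without transfer array 1 or 3. With the mean or the median over probe sets no member passed, where 0.238% and 0.0629% of all genes were higher. With the median of those above background only CTSL did, where 0.89% of all genes were higher. For CTSL this was its brightest probe set again, since no other lay above background, so that summary could not change its difference. Chosen by control arrays, CTSL alone passed (all genes 0.692% higher), again on the same probe set. CTSB had the same difference with a limma adjusted p of 0.0689.

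**Figure D2:**
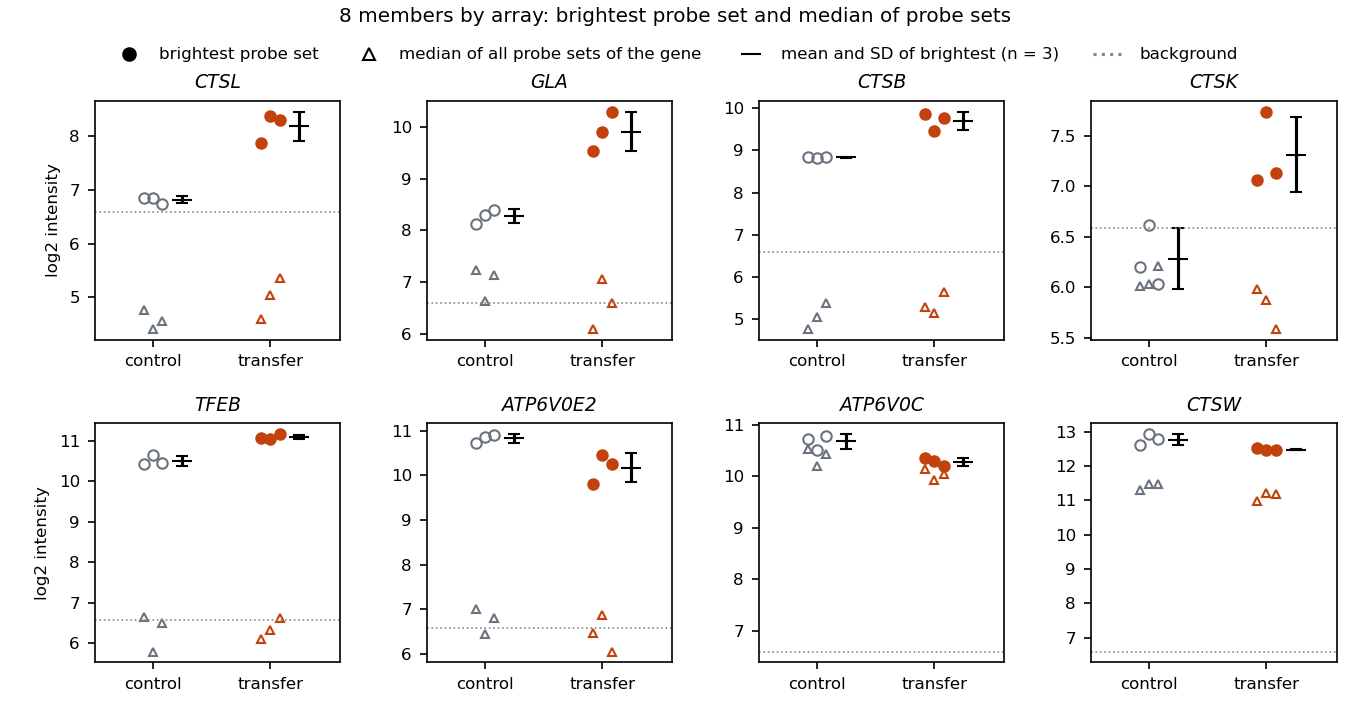
Log2 intensity by array for 8 members chosen after their values were seen, as the brightest probe set (circles, with mean and SD beside them, n = 3) and as the median of all probe sets of the gene (triangles); the dotted line is background at 6.59. In GLA and CTSK the circles are higher after transfer while the triangles are not, and in TFEB the triangles overlap.

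CTSK encodes cathepsin K, best known as the collagen-degrading protease of osteoclasts. The arrays gave 6.20, 6.62 and 6.03 in the controls and 7.07, 7.74 and 7.13 after transfer. The groups did not overlap, but only 1 control array lay above background, and the control mean of 6.28 lay below it. With each array raised to background where it lay below, the difference was 0.71, and on the measured values it was 1.03 (limma adjusted p = 0.0972). All 4 other probe sets of the gene above background had a negative difference.

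CTSH encodes cathepsin H, an aminopeptidase. Its brightest probe set gave 8.92, 9.11 and 8.59 in the controls and 8.11, 8.21 and 8.68 after transfer. The groups overlapped by 1 array each, and the difference of −0.54 had a limma adjusted p of 0.253. Its second probe set gave 7.05, 6.59 and 6.62 against 9.54, 9.11 and 9.14. There the groups lay far apart in the other direction, by 2.51 (limma adjusted p = 0.0527 over all probe sets). It was 1 of 2 other CTSH probe sets above background, both positive, with a median of 1.43. Of all 19 others 12 were positive, so most of the gene did not share the negative difference.

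CTSA encodes the serine carboxypeptidase that also protects beta-galactosidase and neuraminidase. Its log2 intensity was 10.85, 10.72 and 11.05 in the controls and 10.65, 10.44 and 10.05 after transfer. All transfer arrays lay below all controls, with a difference of −0.49 (limma adjusted p = 0.252), and 18 of its 19 other probe sets were negative too. CTSD, the gene of the aspartic protease cathepsin D, showed a similar picture at −0.27 (limma adjusted p = 0.321), with 10 of 11 other probe sets negative.

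CTSW encodes cathepsin W, a protease expressed mainly in NK cells and cytotoxic T cells. It measured 12.62, 12.93 and 12.78 in the controls and 12.52, 12.47 and 12.47 after transfer. The transfer arrays were nearly alike and lay below all controls. The difference was −0.29 (limma adjusted p = 0.327), and 12 of its 13 other probe sets, all 13 of them above background, were negative.

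The remaining proteases were CTSS, CTSZ and TPP1. CTSS, for the cathepsin S of antigen-presenting cells, gave 10.07, 9.71 and 10.04 in the controls and 9.85, 10.07 and 9.98 after transfer. Its groups overlapped, and its difference was 0.03. The median of its probe sets gave a different value, −0.54 (limma adjusted p = 0.284), with 8.80, 8.58 and 8.84 in the controls and 8.17, 8.48 and 7.95 after transfer, without overlap. CTSZ and TPP1, for the carboxypeptidase cathepsin Z and tripeptidyl peptidase 1, had differences of 0.43 and 0.38 (limma adjusted p = 0.377 and 0.289). For TPP1 another probe set was the brighter in the controls, with a mean of 9.92 against 9.63, and its difference was −0.25. Of the 19 other TPP1 probe sets 11 were negative.

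Apart from GLA, no glycosidase gene had an unadjusted limma p under 0.05 on its brightest probe set. GLB1, for the beta-galactosidase of the lysosome, gave 10.25, 10.51 and 10.65 in the controls and 9.57, 10.57 and 10.41 after transfer. HEXA, for the alpha subunit of beta-hexosaminidase, gave 9.63, 10.18 and 10.19 against 9.70, 9.70 and 10.06. Both overlapped between groups, with differences of −0.29 and −0.18.

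With the median of probe sets, GLB1 was 7.02, 7.21 and 7.13 in the controls and 6.68, 6.45 and 6.76 after transfer. HEXA was 8.01, 7.77 and 8.02 against 7.53, 7.46 and 7.70. On this measure neither gene's groups overlapped, and the differences were −0.49 and −0.37 (limma adjusted p = 0.271 and 0.357). All 5 glycosidase genes, which also include GUSB for beta-glucuronidase and MAN2B1 for alpha-mannosidase, had a negative difference on the median of probe sets. Of their 65 single probe sets above background 80.0% were negative, against 60.8% of all genes.

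Of the lipid enzymes, LIPA encodes the acid lipase that splits cholesteryl esters. Its log2 intensity was 8.22, 8.25 and 7.86 in the controls and 8.14, 7.38 and 7.61 after transfer, with overlapping groups and a difference of −0.40 (limma adjusted p = 0.41), while 10 of its 14 other probe sets were positive. PPT1, for the thioesterase that removes palmitate from proteins, gave 11.21, 11.46 and 11.29 against 11.34, 11.37 and 11.18. Its groups also overlapped and its difference was −0.03, positive with quantile, loess or median scaling.

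Of the soluble non-enzymes, NPC2, which hands cholesterol to NPC1, was 8.30, 8.62 and 8.08 in the controls and 8.15, 7.93 and 7.87 after transfer. PSAP, the precursor of the saposins that help lipid hydrolases, was 8.70, 9.41 and 9.52 against 9.27, 9.36 and 8.74. Groups overlapped for both, with differences of −0.35 and −0.09.

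No gene of the proton pump passed the adjusted threshold. Of the 17 genes 11 had a negative difference, with a median of −0.19, against 49.4% of all genes negative. An unadjusted limma p under 0.05 was reached by 3 of them, all negative, against 7.31% of all genes lower and 10.6% higher. The sectors were described apart, with no test between them. Of the 61 V0 single probe sets above background 75.4% were negative, with a median of −0.23, whereas in the V1 sector 56.5% of 92 were, with a median of −0.05. The corresponding values over all genes were 60.8% and −0.10.

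In the V0 sector, ATP6V0E2 encodes an e subunit. It measured 10.73, 10.85 and 10.91 in the controls and 9.82, 10.45 and 10.25 after transfer. All transfer arrays lay below all controls, and array 1 was the lowest. The difference was −0.66 (standard error 0.19, limma adjusted p = 0.151). Of its 10 other probe sets 9 were negative. With trend and robust options in limma the adjusted p was 0.0419.

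ATP6V0C encodes the c subunit that forms the proton-carrying ring. It gave 10.74, 10.52 and 10.79 in the controls and 10.36, 10.30 and 10.20 after transfer. The groups did not overlap, and the difference was −0.39 (limma adjusted p = 0.21). RefSeq names 4 pseudogenes of ATP6V0C, whose part in the signal was not tested.

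ATP6V0E1, for the other e subunit, gave 10.56, 10.61 and 10.82 against 10.31, 10.32 and 10.49. All transfer arrays lay below the controls, by −0.29 (limma adjusted p = 0.327). ATP6V0B, for the c″ subunit of the ring, overlapped between groups with 9.37, 9.29 and 9.74 against 9.38, 9.56 and 9.68. On the median of its probe sets it was 7.59, 7.85 and 7.73 in the controls and 7.45, 7.36 and 6.73 after transfer, without overlap and with a difference of −0.55 (limma adjusted p = 0.338).

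The other V0 genes were ATP6V0A1 and ATP6V0A2, for the a subunits that place the pump in different compartments, and ATP6V0D1, for the d subunit that couples the ring to the central stalk. Their differences were 0.08, −0.23 and −0.19. Only those of ATP6V0A2 did not overlap between groups.

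In the V1 sector, ATP6V1A encodes the catalytic A subunit. Its log2 intensity was 10.87, 10.92 and 11.16 in the controls and 11.17, 11.24 and 11.17 after transfer. All transfer arrays were above all controls, though control array 3 nearly reached them, and the difference was 0.21 (limma adjusted p = 0.477). Of its 20 other probe sets 14 were positive. The median of its probe sets was 8.19, 8.29 and 8.11 against 8.90, 8.53 and 8.41, a difference of 0.41 without overlap (limma adjusted p = 0.357), and it was the only member with a positive difference and an unadjusted p under 0.05 on this measure.

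ATP6V1F encodes the F subunit of the central stalk. It gave 9.40, 9.74 and 9.66 in the controls and 9.11, 9.24 and 9.29 after transfer, without overlap. The difference was −0.39 (limma adjusted p = 0.24). ATP6V1E1, for the E subunit of the peripheral stalk, overlapped with 8.84, 8.57 and 8.91 against 8.12, 8.36 and 8.90. The median of its probe sets was 6.77, 6.75 and 7.50 against 6.58, 6.11 and 6.17, without overlap and with a difference of −0.72 (limma adjusted p = 0.286).

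ATP6V1H, for the regulatory H subunit, gave 9.10, 9.53 and 9.35 in the controls and 9.85, 9.80 and 9.24 after transfer. The groups overlapped, and the difference of 0.30 (limma adjusted p = 0.499) became −0.17 with the probe set that was brightest in the controls. ATP6V1D, for the D subunit of the central stalk, had the largest negative difference of the members at −1.35, set by 1 array. It gave 7.85, 8.48 and 8.13 in the controls and 8.32, 7.80 and 4.29 after transfer, and the median of its other probe sets was −0.05. ATP6V1B2, ATP6V1C1 and ATP6V1G1, for the B, C and G subunits, overlapped between groups, with differences of −0.06, 0.18 and −0.14.

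Of the accessory genes, ATP6AP1 encodes a pump assembly factor. Its brightest probe set gave 10.66, 10.45 and 10.60 in the controls and 10.33, 10.22 and 10.38 after transfer, without overlap and with a difference of −0.26 (limma adjusted p = 0.361). Of its 17 other probe sets 14 were negative. A probe set ranked 14 of 18 by brightness was one of the positive ones and gave 4.09, 4.28 and 5.47 in the controls and 9.58, 9.91 and 8.61 after transfer. All controls of that probe set lay below background and all transfer arrays above it, a rise of at least 3.22 on the log2 scale against the background level (limma adjusted p = 0.0688 over all probe sets).

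ATP6AP2, for the prorenin receptor, which is also a part of the pump, gave 9.79, 9.90 and 10.30 in the controls and 9.71, 10.06 and 10.49 after transfer. The groups overlapped fully, with a difference of 0.09.

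**Figure D3:**
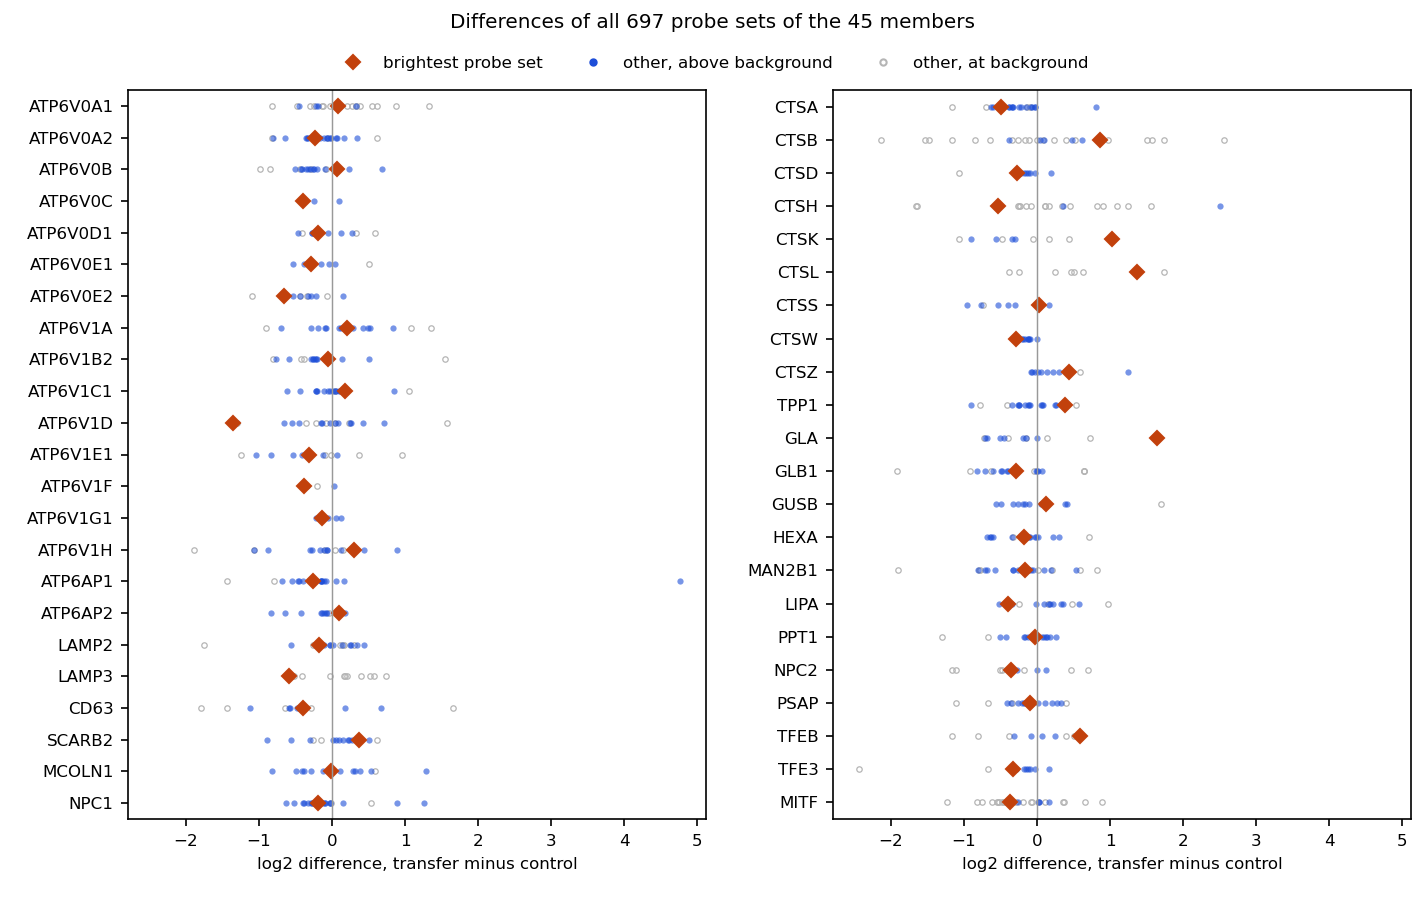
Difference of the group means (transfer minus control, log2) for each of the 697 single-gene probe sets of the 45 members, with the brightest probe set as a diamond, others above background (6.15) as filled circles and others at background as open circles. The diamonds of GLA and CTSK lie apart from the filled circles of the same gene, and 1 probe set of ATP6AP1 lies at 4.76.

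Set beside each other, the pump and the enzyme genes differed on the brightest probe sets. The mean deviation of the pump genes minus that of the enzyme genes was 0.18, 0.13 and 0.27 in the controls and −0.12, −0.17 and −0.30 after transfer. The groups did not overlap. The medians of the differences were −0.19 for the pump and −0.03 for the enzymes, whose 17 genes held 8 positive and 9 negative values. No test was made, since the members are not replicates.

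Most of this gap came with the 3 enzymes that passed the threshold. Without CTSL, GLA and CTSB, a split made after seeing the data, the enzyme median was −0.17. The gap was then 0.07, 0.01 and 0.15 in the controls and −0.02, −0.07 and −0.14 after transfer, without overlap while ATP6V1D was included. The pump value of transfer array 3 included the single low value of ATP6V1D, 4.29. In that array the mean deviation of the V1 genes was −0.37, against 0.01 and 0.06 in transfer arrays 1 and 2. If ATP6V1D is left out of the pump genes, the groups overlap in the gap without CTSL, GLA and CTSB. With all 17 enzymes they stay apart. With the median of each gene's probe sets the groups overlapped, at 0.00, 0.06 and 0.01 in the controls and 0.14, −0.12 and −0.09 after transfer. On that measure the medians were −0.18 for the pump and −0.16 for the enzymes.

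**Figure D4:**
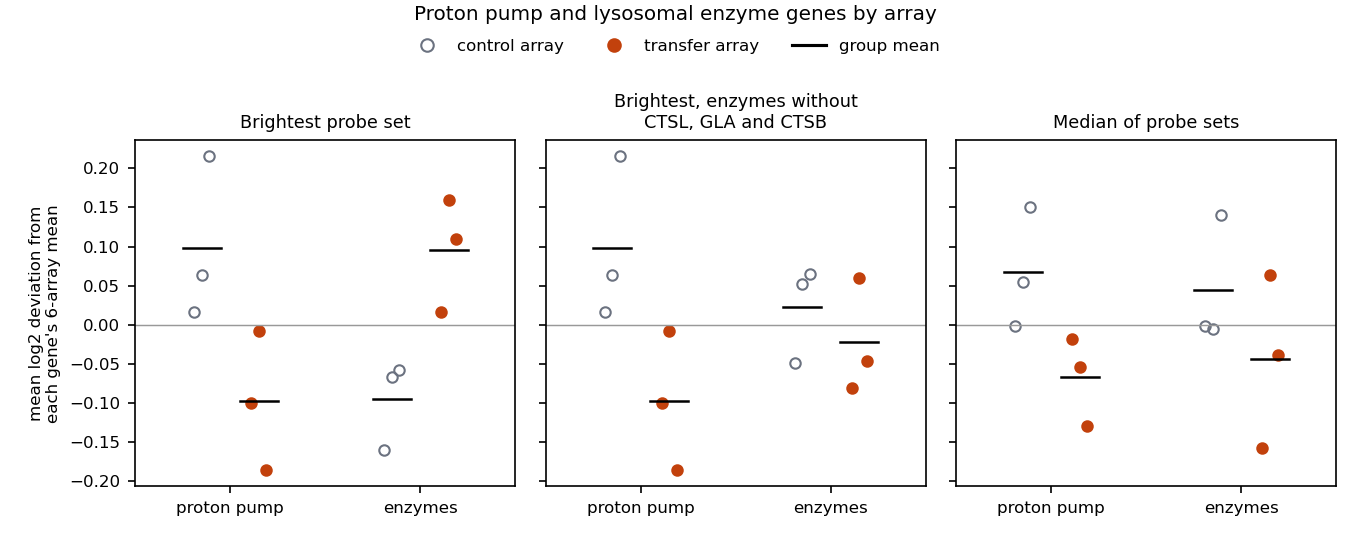
Mean log2 deviation of 17 pump genes and 17 enzyme genes from each gene's mean over 6 arrays, by array, with bars at the group means, for the brightest probe sets, the same without CTSL, GLA and CTSB (14 enzymes), and the median of probe sets. Pump genes are lower after transfer in each panel, and enzyme genes are higher only in the first.

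None of the 6 membrane genes passed the threshold or had an unadjusted limma p under 0.05. CD63, for a tetraspanin of lysosomes and secretory granules, gave 11.27, 11.59 and 11.81 in the controls and 11.10, 11.32 and 11.06 after transfer. The groups overlapped slightly, with a difference of −0.40 (limma adjusted p = 0.308), and 14 of its 17 other probe sets were negative. LAMP3, a lysosome-associated membrane glycoprotein of dendritic cells, was 7.16, 6.84 and 6.91 against 7.25, 5.63 and 6.24, with transfer array 1 above all controls and the other two below background. Its measured difference of −0.60 was −0.16 with each array raised to background where it lay below, and none of its 10 other probe sets lay above background.

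SCARB2, for the receptor that carries glucocerebrosidase to lysosomes, was 9.46, 8.91 and 9.31 in the controls and 9.38, 10.03 and 9.37 after transfer. Its groups overlapped, and its difference of 0.36 was 0.15 without transfer array 2 and 0.20 without control array 2. LAMP2, for a major glycoprotein of the lysosomal membrane, had a difference of −0.18 without overlap. MCOLN1, for a calcium channel, and NPC1, for the cholesterol transporter, overlapped with differences of −0.02 and −0.19.

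Of the transcription factor genes, TFEB gave 10.43, 10.64 and 10.44 in the controls and 11.07, 11.05 and 11.16 after transfer. The groups did not overlap and both were narrow. The difference was 0.59 (1.51-fold, standard error 0.13), and its limma adjusted p was 0.0886, or 0.0463 with dim genes left out and 0.00888 with trend and robust options. The brightest probe set stood alone here as well, since 5 of 10 others were positive and 5 negative, and the median of probe sets gave 0.03.

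TFE3 gave 10.60, 10.73 and 10.80 in the controls and 10.20, 10.54 and 10.42 after transfer. MITF gave 10.67, 10.61 and 10.70 against 10.27, 10.56 and 10.02. In both genes all transfer arrays lay below all controls, by −0.32 and −0.37 (limma adjusted p = 0.311 and 0.305). Of the other probe sets 13 of 14 were negative in TFE3, and 9 of the 10 above background. In MITF 14 of 23 were negative, but only 4 of the 23 lay above background, and 3 of those were positive.

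The element these factors bind was looked up in RefSeq promoters (GRCh38.p14), from 250 bases before to 50 after each start. Promoters were listed for 32 of the 45 members. CACGTG, which reads the same on both strands, was in 9 of 50 member promoters (18.0%) and in 7.26% of all 35116. The longer TCACGTGA, which contains it, was in 4 (8.0%) against 0.98%. The genes with CACGTG were ATP6V0B, ATP6V0D1, ATP6V0E2, ATP6V1G1, CTSA, CTSD, MCOLN1 and CD63. Of these ATP6V0D1, ATP6V1G1, CTSA and MCOLN1 held the longer form. No listed promoter of CTSL, GLA or TFEB held these letters in that stretch, and none was listed for CTSB. The windows below show the element in capitals in the 6 pump and enzyme genes that held it. They lie on the gene's strand, upstream of the start.
ATP6V0B, chr1:43974883-43974928, plus strand: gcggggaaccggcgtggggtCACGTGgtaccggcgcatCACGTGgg
ATP6V0E2, chr7:149872876-149872921, plus strand: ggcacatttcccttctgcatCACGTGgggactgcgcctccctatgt
ATP6V0D1, chr16:67481191-67481236, minus strand: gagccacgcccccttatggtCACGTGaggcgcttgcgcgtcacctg
ATP6V1G1, chr9:114587691-114587736, plus strand: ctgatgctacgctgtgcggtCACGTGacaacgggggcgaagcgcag
CTSA, chr20:45891273-45891318, plus strand: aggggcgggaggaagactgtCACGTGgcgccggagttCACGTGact
CTSD, chr11:1763949-1763994, minus strand: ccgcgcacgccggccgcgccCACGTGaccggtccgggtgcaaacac
ATP6V0B and CTSA carried the element a second time in the same window. Of the 8 members with it 7 had a negative difference on the brightest probe set, with a median of −0.23, and of the 24 with a listed promoter but without it 15 did, with a median of −0.21. A match of letters does not show that a factor binds there.

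At the level of single probe sets, none of the 697 passed the adjusted threshold in limma, where 0.0652% of all probe sets were higher and 0.00424% lower. At an unadjusted p under 0.05, a count added after seeing the data, 29 were higher and 30 lower, against 4.58% and 5.46% of all probe sets. With the median of each gene's probe sets no member passed, against 0.0719% of all genes. At an unadjusted p under 0.05 on that measure 1 was higher and 5 lower, against 5.27% and 8.14%, and 30 of 45 had a negative difference, against 55.2%. The sign on the brightest probe set matched that of the median of probe sets for 28 members.

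Whether the probe sets of a gene moved unequally was examined with limma's diffSplice. It named ATP6AP1, GUSB, PPT1 and CD63 among the members, and 5.08% of all genes. In GUSB, PPT1 and CD63 the probe set that differed most from its gene lay at background. In this data set probe sets at background had a median SD of 0.71 within groups and those above it 0.28. With weights by brightness, added after seeing the data, the members named were ATP6AP1, CTSA, CTSB, CTSH, GLA and MCOLN1, and 8.65% of all genes. With probe sets at background left out they were ATP6AP1, CTSA, CTSH, CTSK, GLA, MCOLN1 and NPC1, and 9.45% of all genes. With both changes together they were ATP6AP1, CTSA, CTSH, CTSK, GLA and MCOLN1, and 12% of all genes. ATP6AP1 and no other member was named in all 4 fits. On simulated data the test called more unchanged genes than its threshold allows, so these names are given as a description.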

How the data were processed

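Arrays of 3 control and 3 transfer samples were grouped by their labels. The deposited values are log2 intensities per exon-level probe set, which per the labels the authors made with RMA in Affymetrix Power Tools. Versions, genome build and probe filters are not given in the sources used here. RMA scales arrays to equal distributions, so a shift shared by most genes would not be seen. Of 352859 probe sets, 13116 named several genes and 80519 none, and were left out; symbols were matched to RefSeq (GRCh38.p14), with 65 unmatched.

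Differences were tested in limma 3.58.1 (R 4.3.3) by lmFit and eBayes over all genes, all probe sets or, with diffSplice, within genes, adjusted by Benjamini-Hochberg at a threshold of 0.05. The fits were tested on simulated data. The members and lists were chosen with earlier results of these data known. Values by array are given for 30 members, namely those with an unadjusted p under 0.05 on the brightest probe set or the median of probe sets, the 3 of each role with the smallest p, the 3 transcription factors and CTSW. CTSD, ATP6V1D and single probe sets were added after their values were seen. The number of arrays limits the precision. Alternatives were other scalings, filters, probe set summaries and limma options, the methods' t-test, a replicate block and each array left out.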

Additional observations from a re-analysis of the deposited data

How the results depend on the processing

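The count of 3 members higher and 0 lower was recomputed under 19 alternatives. It was the same with quantile, loess or median scaling and with array weights, 4 higher with dim genes left out (all genes 3.44% higher, 0.868% lower), and 4 higher and 1 lower with trend and robust options (all genes 3.37% and 1.46%). It was 0 higher with the mean or median of probe sets and with the methods' t-test after adjustment (all genes 0.238%, 0.0629% and 0.669% higher). That test unadjusted gave 5 higher and 10 lower. No share of all genes was computed for it, so these counts cannot be set against all genes. The count was 1 higher with the median of probe sets above background or with the probe set brightest in the controls (all genes 0.89% and 0.692%). In both cases this was CTSL, on the same probe set as in the main setting. Leaving out 1 array gave 0 to 2 higher (all genes 0.75% to 1.29%). The labels do not say whether equal numbers pair the samples. Deviations of same-numbered samples had correlations of 0.07, 0.01 and 0.01, and pairing was not tested further. With a replicate block 1 member was higher (GLA), where 0.692% of all genes were.

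At the probe set level the count of 0 higher was 1 with quantile or loess scaling (196 of all probe sets higher in each), 7 with trend and robust options (1137), 4 with dim probe sets left out (640, against 169 in the main setting) and 29 higher and 30 lower unadjusted. Unequal response named 4 members, 7 without dim probe sets (9.45% of all genes) and 2 to 8 with 1 array left out (1.6% to 10.4%, with 8 at 10.4% without transfer array 1).

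The enzyme median of −0.03 was 0.035, 0.052 and 0.020 with quantile, loess and median scaling, 0.023 and 0.021 without transfer array 1 or 3, 0.0011 without CTSW, −0.15 and −0.16 with the mean and median of probe sets, −0.11 with the median above background (where the pump median was −0.062), −0.25 with probe sets chosen in the controls and −0.17 without CTSL, GLA and CTSB. The pump median minus the enzyme median, −0.17, was 0.010, −0.019, 0.047, 0.053 and −0.022 under those last 5 choices.

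Of 540 values of 30 named members, 465 kept direction and side of the threshold, 23 lost and 3 gained the call and 49 reversed, in 15 members. With the mean of probe sets these were ATP6V0B −0.25, ATP6V1H −0.16, ATP6AP2 −0.14, LAMP3 0.11, CTSH 0.24, CTSK −0.21, CTSS −0.34, GLA −0.11, LIPA 0.13 and TFEB −0.028. With the median they were ATP6V0B −0.55, ATP6V1H −0.17, ATP6AP2 −0.19, SCARB2 −0.035, CTSH 0.45, CTSK −0.28, CTSS −0.54, GLA −0.42, LIPA 0.16, PPT1 0.075 and PSAP 0.018. With the median above background they were ATP6V0B −0.17, ATP6V1H −0.16, ATP6AP2 −0.062, SCARB2 −0.028, CTSH 0.82, CTSK −0.43, CTSS −0.44, GLA −0.17, LIPA 0.017, NPC2 0.013 and TFEB −0.018. With probe sets chosen in the controls they were ATP6V1H −0.17, CTSK −0.30 and GLA −0.50. PPT1 was 0.035, 0.052 and 0.020 with quantile, loess and median scaling. With 1 array left out the sign of 6 members reversed at least once, over ranges of −0.015 to 0.21 for ATP6V0B, −0.11 to 0.28 for ATP6AP2, −0.087 to 0.092 for CTSS, −0.48 to 0.023 for GLB1, −0.081 to 0.045 for PPT1 and −0.34 to 0.11 for PSAP. The causes were not tested.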

Other observations

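Genes outside the 45, in lists drawn up around the lysosome but not limited to it, gave a few calls in the opposite direction to CTSL and CTSB. A list of other enzymes had 45 measured genes, including the pseudogene GUSBP1. Of these limma called none higher and 2 lower after adjustment, where 1.74% of all genes were higher and 0.234% lower. ARSB, for the arylsulfatase that acts on dermatan sulfate, was 9.93, 10.28 and 9.87 in the controls and 9.03, 9.26 and 8.85 after transfer (difference −0.98, adjusted p = 0.0477), and the median over all its 16 probe sets was −0.24. PPT2, for a thioesterase related to PPT1, was 7.45, 7.55 and 7.77 against 6.83, 6.55 and 6.62 (difference −0.92, adjusted p = 0.0347), and the median over all its probe sets was −0.74. In both genes the groups did not overlap. Of 35 other measured membrane genes 1 was lower, ABCB9, for a peptide transporter of lysosomes, at 8.69, 8.55 and 8.47 against 7.36, 7.49 and 7.86 (difference −1.0, adjusted p = 0.0387). Its median over all probe sets was −0.14, so that most of the gene did not share that size.

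Of 13 other measured pump genes, 4 genes of other soluble lysosomal proteins and 26 genes that deliver proteins to lysosomes none passed the adjusted threshold in limma, and 0, 0 and 3 had an unadjusted p under 0.05. The 3 were delivery genes with positive differences, GGA1, AP4E1 and GGA2 (0.60, 0.44 and 0.33), where 10.6% of all genes were higher at that level. Over all probe sets of each gene their medians were −0.06, 0.22 and 0.18, and on the median of probe sets 19 of the 26 delivery genes were negative. Of 18 measured genes that control TFEB 1 passed, PPP3CB, a catalytic subunit of calcineurin, the phosphatase that lets TFEB enter the nucleus. Its difference was 0.89 (limma adjusted p = 0.0354), with the transfer arrays above all controls, and the median over all its 17 probe sets was 0.17.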
